A study of Homo sapiens with 12 samples.

Results

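The genes described here lie in the distal stretch of human chromosome 9, from 70 Mb to its end, on the long arm. The stretch was selected on the NOTCH1KO and WT values of these same libraries, in which its genes had been seen to lie low in NOTCH1KO. Members were all genes that start at or beyond 70 Mb on GRCh37, have a mean TPM of at least 5 over the 12 libraries (TPM is the abundance of transcripts per unit length, on a scale with the same sum in every library) and carry a gene name without a dot, with a short set of names left out, among them NOTCH1, PTCH1, KLF4, and the RPL, COL and ADAMTS genes. This gave 328 members of 63677 gene identifiers. The stretch held 1363 identifiers at any level, and 39 genes that met the limits of position and level were not members because of their names, 20 for a dot and 19 for other reasons. Of the members, 299 were protein coding, 24 were pseudogenes, 4 were other noncoding genes and 1 matched no entry of the annotation.

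The libraries came from DAOY, a cell line established from a human medulloblastoma, a tumour of the cerebellum. The cells were wild type (WT) or belonged to a line in which NOTCH1 (NOTCH1KO) or NOTCH2 (NOTCH2KO) had been inactivated with CRISPR/Cas9, with 1 line for each knockout. The plates carried either Jagged1, a ligand of Notch receptors, or Fc as its control, and the medium held DAPT, an inhibitor of γ-secretase, for 12 h, or its vehicle DMSO, for each genotype. Each of the 12 combinations was sequenced once, so the 4 libraries of a genotype were 4 different cultures and no culture was repeated.

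Notch receptors are cleaved after a ligand binds, and γ-secretase makes the last cut, which frees the intracellular domain to act with the DNA-binding protein CSL on its target genes. NOTCH1 itself lies near the tip of the long arm of chromosome 9, whereas NOTCH2 lies on chromosome 1. The long arm carries genes of many unrelated functions, from proteasome and respiratory chain subunits to cytoskeletal and secreted proteins, so its genes have a place on a chromosome in common and not a pathway.

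Depth was 18.3 to 22.4 M reads per library, and correlations between libraries lay between 0.924 and 0.976 over 66 pairs. NOTCH1 had a TPM of 0.278 to 0.874 in NOTCH1KO against 2.78 to 3.57 in WT, and NOTCH2 had 41.6 to 60.5 in NOTCH2KO against 74.9 to 94.9 in WT. Of 12 genes of the neural progenitor and granule neuron lineage 7 reached a mean TPM of 1, while DCX was listed at 0 and ATOH1, BARHL1, GLI1 and MAP2 lay under 1. Of 8 fibroblast genes 7 reached a TPM of 1, with summed levels of 3735 to 5462 TPM in WT, 5269 to 7850 in NOTCH1KO and 2967 to 4511 in NOTCH2KO. The summed levels of the neural list were 93.1 to 114 TPM in WT, 74.1 to 94.6 in NOTCH1KO and 116 to 136 in NOTCH2KO. Of 6 epithelial genes 4 reached a TPM of 1, CDH1 and EPCAM did not, and the summed levels were 779 to 1037 TPM in WT, 587 to 760 in NOTCH1KO and 685 to 809 in NOTCH2KO. Of 7 blood and endothelial genes none reached a TPM of 1, and 5 were listed at 0. The part of the cells marked by these lists in the results below was not tested.

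GDA and AAED1 are the genes given as markers of the stretch. GDA (guanine deaminase, ENSG00000119125, chromosome 9, 74729511 to 74872109) turns guanine into xanthine, and AAED1 (ENSG00000158122, chromosome 9, 99401859 to 99417585) encodes a protein of the peroxiredoxin-like family. Their promoters, from 250 bases before to 50 bases after the annotated start, are shown because these genes are the markers. A further reason is that binding of CSL to its core letters TGGGAA is the usual route of Notch to a gene. The sequences are those of RefSeq on GRCh38.p14, a later build than that of the deposited values, and capitals mark the CG pairs.
GDA (chr9:72149190-72149489, plus strand): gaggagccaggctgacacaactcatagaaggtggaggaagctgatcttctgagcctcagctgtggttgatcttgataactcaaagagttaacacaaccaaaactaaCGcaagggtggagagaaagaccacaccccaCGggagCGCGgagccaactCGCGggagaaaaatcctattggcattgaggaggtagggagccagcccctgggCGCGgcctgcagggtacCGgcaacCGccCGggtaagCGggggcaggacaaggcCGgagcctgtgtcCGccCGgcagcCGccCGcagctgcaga
AAED1 (RefSeq symbol PRXL2C, chr9:96655268-96655567, minus strand): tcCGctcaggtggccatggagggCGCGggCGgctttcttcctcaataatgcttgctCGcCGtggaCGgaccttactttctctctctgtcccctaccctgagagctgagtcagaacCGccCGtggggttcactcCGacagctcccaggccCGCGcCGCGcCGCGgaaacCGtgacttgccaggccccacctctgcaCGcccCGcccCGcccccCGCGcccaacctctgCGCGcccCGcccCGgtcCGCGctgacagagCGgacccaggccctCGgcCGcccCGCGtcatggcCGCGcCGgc
The GDA promoter held 17 CG pairs and the AAED1 promoter 36, with a GC content of 60.7% and 72.3%. Neither window held TGGGAA on either strand. Promoters in RefSeq matched 266 of the 328 members, and 43 of them (16.2%) held TGGGAA on either strand, compared with 24.0% of all 35116 promoters of that length and 21.9% of those of 8556 genes on other chromosomes with a mean TPM of at least 5. Among 262 coding members with a matched promoter, the median difference between NOTCH1KO and WT was -0.80 on the log2(TPM + 1) scale for the 42 with these letters and -0.76 for the 220 without. Member promoters had a median of 30 CG pairs against 27 for the expressed genes of other chromosomes and 14 for all promoters. A match to these letters is a description of the sequence and not a binding site, and the absence of a match says nothing on whether CSL binds.

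The TPM of AAED1 in WT was 20.9 on Fc with DMSO, 22.6 on Fc with DAPT, 28.0 on Jagged1 with DMSO and 25.2 on Jagged1 with DAPT. In NOTCH1KO, in the same order of cultures, it was 9.70, 9.48, 8.65 and 7.82, and in NOTCH2KO it was 21.3, 20.4, 21.5 and 25.3. All 4 NOTCH1KO libraries therefore lay below the other 8, whereas WT and NOTCH2KO overlapped. The means were 24.2 ± 3.13, 8.91 ± 0.859 and 22.1 ± 2.17 (SD over the 4 cultures of a genotype, as for every such value here), and NOTCH1KO stood at 36.9% of WT. NOTCH2KO differed from WT by -0.12 (SE 0.12, adjusted p = 0.557, limma), which did not pass the test.

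GDA fell just outside the members, since its mean over the 12 libraries was 4.88 TPM. WT cultures had 4.60, 5.70, 3.26 and 5.57 TPM, NOTCH1KO cultures 0.108, 0.285, 0.132 and 0.190, and NOTCH2KO cultures 9.12, 7.76, 8.96 and 12.8. The 3 genotypes did not overlap, with NOTCH1KO lowest and NOTCH2KO highest. At 3.74% of WT, its level in NOTCH1KO was far lower relative to WT than that of any member, the lowest of which was at 16.5%. That lowest value depends on the TPM limit, which can leave out genes with a low level in NOTCH1KO. Among the members 20 had a NOTCH1KO mean under 5 TPM. In the stretch 7 genes left out by level alone had a WT mean of at least 5.

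**Figure D1:**
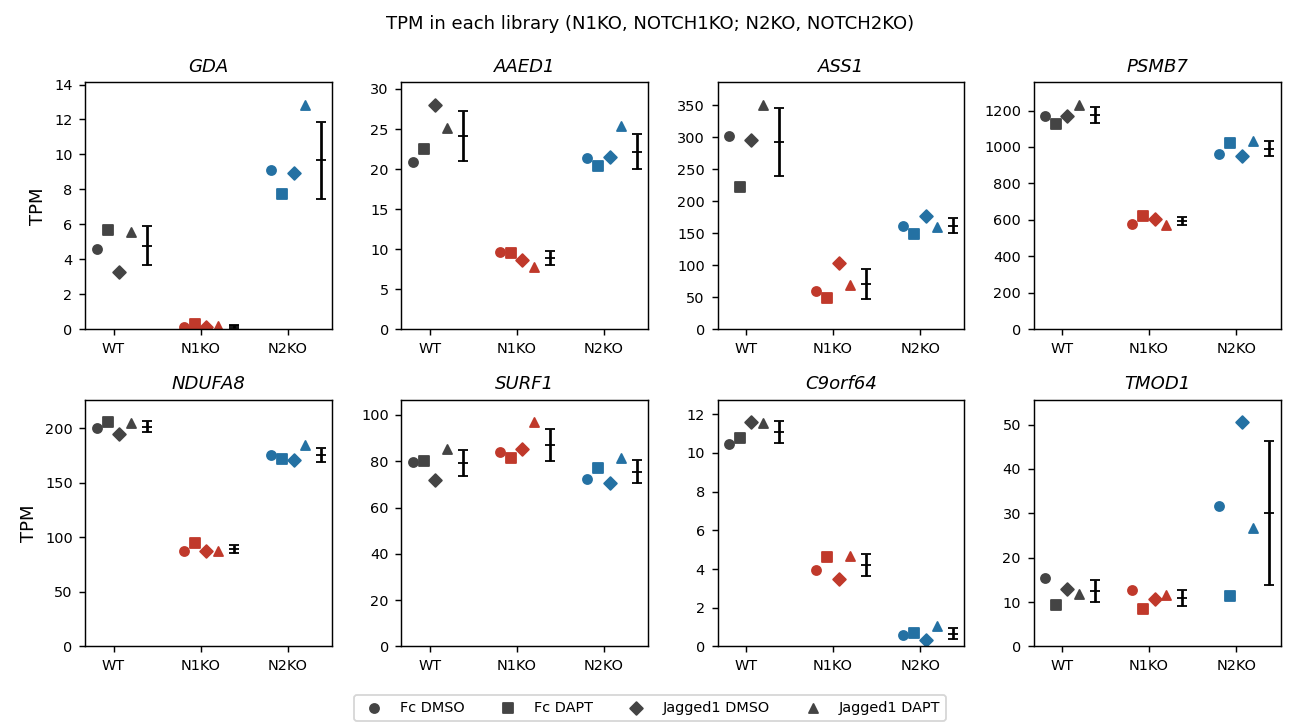
TPM (vertical axis, from 0) of 8 genes of the stretch in each of the 12 libraries, grouped by genotype, with a marker shape for each culture and the mean ± SD of the 4 cultures in black. GDA, AAED1, ASS1, PSMB7, NDUFA8 and C9orf64 have all 4 NOTCH1KO points below all WT points, SURF1 does not, and TMOD1 is spread from 11.4 to 50.6 TPM in NOTCH2KO.

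Since the comparison of NOTCH1KO with WT is the one that picked the stretch, its values are given as a description and without a test. The median member lay 0.74 lower in NOTCH1KO than in WT on the log2(TPM + 1) scale, with quartiles of -1.02 and -0.46, and the median ratio of mean TPM was 58.1%. Genes on other chromosomes with a mean TPM of at least 5 had a median of 0.02 and a median ratio of 101.2%. All 4 NOTCH1KO libraries lay below all 4 WT libraries for 227 of the 328 members (69.2%), and for 12.5% of the 17621 genes tested in the series. They lay above all 4 WT libraries for 4 members, and for 11.9% of all genes. For 182 members (55.5%) the NOTCH1KO libraries lay below all 8 of the others, compared with 8.18% of all genes.

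The median over all members was shifted by similar amounts in every culture, which did not hold for the distal members described below. The median difference was -0.67 on Fc with DMSO, -0.75 on Fc with DAPT, -0.79 on Jagged1 with DMSO and -0.66 on Jagged1 with DAPT, where genes of other chromosomes had medians between -0.02 and 0.07. NOTCH1KO was lower than the matched WT culture in all 4 cultures for 260 of the 328 members, against 20.6% of all genes tested. The coding members took up 2.16% to 2.26% of the TPM of the WT libraries, 1.24% to 1.31% of the NOTCH1KO libraries and 1.85% to 1.93% of the NOTCH2KO libraries, so that the 3 genotypes did not overlap. In bulk RNA, fewer cells expressing a gene and less of its RNA per cell cannot be told apart.

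**Figure D2:**
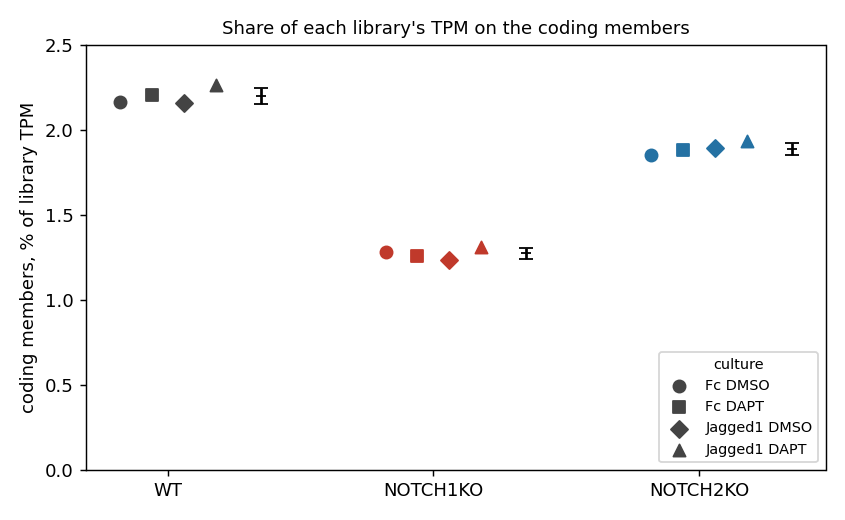
Share of the TPM of each library held by the 299 coding members (vertical axis, percent, from 0), by genotype, with a marker shape for each culture and the mean ± SD in black. The NOTCH1KO libraries sit between 1.24% and 1.31%, below the NOTCH2KO libraries at 1.85% to 1.93% and the WT libraries at 2.16% to 2.26%.

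The shift was spread over the coding members rather than carried by a few. Their median was -0.78, and 293 of 299 had a difference below 0. Relative to WT, 47 of them stood under 40%, 179 between 40% and 70%, 66 between 70% and 100% and 7 at 100% or over. The spread around that median was like that of other genes: the interquartile range was 0.54, against 0.51 for 9976 coding genes on other chromosomes. The level of a gene made little difference, with medians of -0.72 for coding members at 5 to 10 TPM, -0.76 at 10 to 30, -0.79 at 30 to 100 and -0.80 over 100. Across the coding members Spearman's rho of the difference with the mean TPM was -0.01, a description over genes of the same libraries.

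Pseudogenes of the same stretch did not share the shift. The 24 pseudogene members had a median difference of 0.02 and a median ratio of 105.9%, and 12 of them lay below 0. All 4 NOTCH1KO libraries were below WT for 2 of them, HMGN2P32 and RPS2P35, and above WT for 4, EEF1A1P5, RPSAP9, HMGB1P37 and PIGUP1, which were the only members above. Most are processed copies of genes elsewhere in the genome with near-identical sequence, so reads may be shared with the parent gene and their levels are uncertain. EEF1A1P5, a copy of the elongation factor gene EEF1A1, had 4515 ± 291 TPM in WT and 5695 ± 373 in NOTCH1KO, the highest level of any member.

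**Figure D3:**
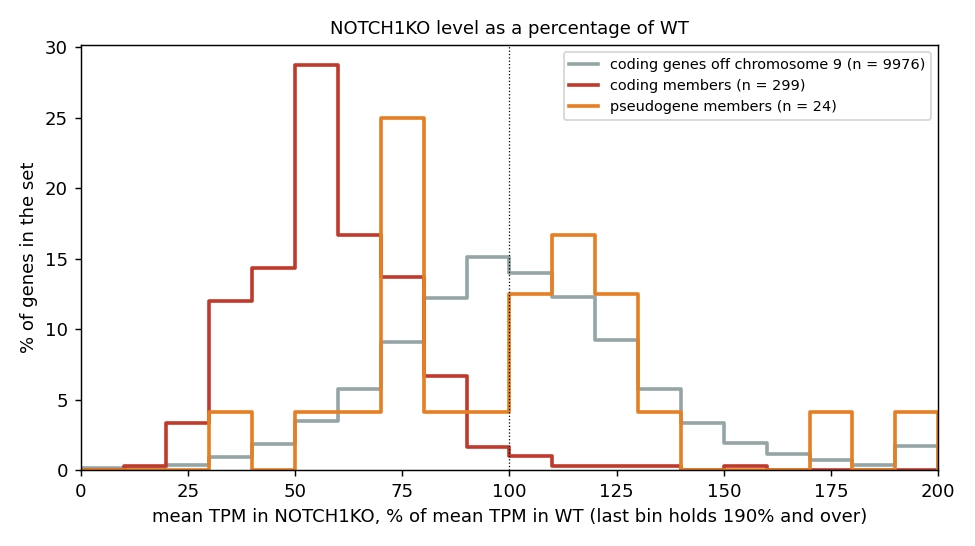
Distribution of mean TPM in NOTCH1KO as a percentage of mean TPM in WT (horizontal axis, bins of 10 percentage points) for coding members, pseudogene members and coding genes on other chromosomes with a mean TPM of at least 5, as a percentage of each set (vertical axis, from 0). The coding members have a median of 56.9%, the pseudogenes 105.9% and the genes of other chromosomes 100.4%.

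Along the stretch, each window of 10 Mb showed the shift. The medians of the coding members were -0.68 from 70 Mb, -0.59 from 80 Mb, -0.66 from 90 Mb, -0.88 from 100 Mb, -0.86 from 110 Mb, -0.87 from 120 Mb, -0.75 from 130 Mb and -0.70 from 140 Mb, with 15 to 114 genes in a window. Short of the stretch, 113 coding genes of chromosome 9 below 70 Mb had a median of -0.11. Among them the 26 in the first 10 Mb of the short arm had a median of -0.50, and the 14 from 10 to 20 Mb had 0.20. At the limit, CBWD5 (55.1 ± 2.72 TPM in WT, 39.0 ± 2.21 in NOTCH1KO) and CBWD3 (40.4 ± 2.45 and 28.2 ± 1.63) were the first members inside, at -0.49 and -0.51. CBWD6 (-0.33) and MIR4477A (-0.16) were the last genes outside, and the CBWD genes are near-identical copies whose reads can be shared. At the TPM limit, TRAF1 (mean 5.06) and PIGUP1 (5.23) were just inside and TOR2A (4.96) and EXD3 (4.95) just outside, with differences of -0.37, 0.65, -1.35 and -0.64.

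**Figure D4:**
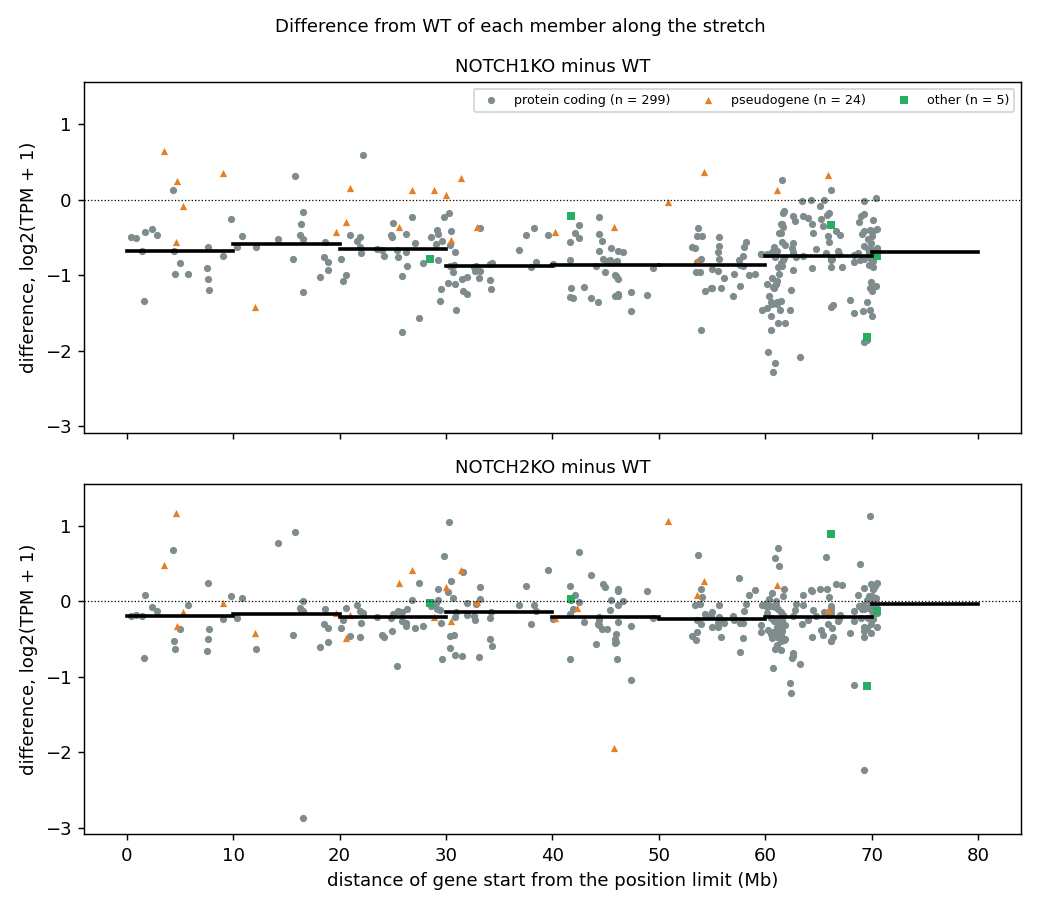
Difference from WT in log2(TPM + 1) (vertical axis) of each of the 328 members against the distance of its start from the position limit in Mb (horizontal axis), with NOTCH1KO above and NOTCH2KO below. Black bars are medians of the coding members in windows of 10 Mb, between -0.88 and -0.59 in NOTCH1KO and between -0.23 and -0.03 in NOTCH2KO.

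The order of the cultures differed between the distal end of the stretch and the rest. From 130 Mb on, 129 coding members had median differences between NOTCH1KO and WT of -0.68 on Fc with DMSO, -1.21 on Fc with DAPT, -0.68 on Jagged1 with DMSO and -0.53 on Jagged1 with DAPT. The 170 coding members from 70 to 130 Mb had -0.73, -0.67, -0.92 and -0.85, so the distal members lay lower on Fc with DAPT and less low on both Jagged1 cultures. The distal genes were also shorter, with a median span of 18.4 kb against 55.0 kb. On Fc with DAPT the coding genes of other chromosomes varied with span too, from -0.26 in the 2494 shortest (up to 13.9 kb) to 0.28 in the 2494 longest (over 79.5 kb). Among the 60 distal members of up to 13.9 kb the Fc DAPT median was -1.38, and among the 25 more proximal ones it was -0.68. From 13.9 to 33.9 kb the medians were -1.12 for 28 distal and -0.71 for 35 more proximal members. From 33.9 to 79.5 kb they were -1.22 for 26 distal and -0.67 for 46 more proximal members. Over 79.5 kb the medians were -0.63 for both, with 15 and 64 members. With 1 library for each culture, this difference has no replicate check.

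On the log2(TPM + 1) scale, the 8 members with the lowest differences from WT came mainly from the distal end. FAM102A (ENSG00000167106) had 15.0, 25.2, 13.4 and 22.2 TPM in WT, 3.16, 2.32, 2.18 and 4.84 in NOTCH1KO against 13.5, 14.3, 12.5 and 14.2 in NOTCH2KO, and so was at 16.5% of WT in NOTCH1KO. On that scale it was followed by C9orf16 (28.5 ± 6.94 to 6.13 ± 4.08 TPM), ASS1, FAM129B (189 ± 12.3 to 46.3 ± 8.83), DNLZ, EGFL7, SNHG7 and C9orf89 (28.7% of WT). EGFL7, a secreted protein with EGF domains, stood at 24.2 ± 6.15 TPM in WT, 6.53 ± 3.60 in NOTCH1KO and 24.3 ± 4.65 in NOTCH2KO. DNLZ, which encodes a partner of mitochondrial HSP70, and the noncoding host gene SNHG7 varied as much within a genotype as between them. DNLZ had 31.8, 31.7, 22.2 and 6.08 TPM in WT and 4.06, 0, 11.7 and 13.6 in NOTCH1KO, and it was listed at 0 in 1 NOTCH2KO library as well. SNHG7 ranged from 8.82 to 77.6 in WT and from 7.79 to 27.2 in NOTCH1KO, so that in neither gene were the NOTCH1KO libraries clear of WT.

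At the other end, the members with the highest differences on the log2(TPM + 1) scale were mostly pseudogenes. YBX1P6 (1.35) was listed at 0 in 8 of the 12 libraries and between 32.8 and 42.1 TPM in the other 4, which came from all 3 genotypes. Then came PIGUP1 (0.65), GADD45G (0.59), HMGB1P37 (0.37), RPSAP9 (0.35), EEF1A1P5 (0.33), FRMD3 (0.32) and SEPT7P7 (0.29). Of the coding members, GADD45G, a stress sensor gene, ranged from 1.88 to 10.4 TPM in WT and from 2.97 to 13.5 in NOTCH1KO, which overlapped. CCBL1 (0.26), TMEM2 (0.14) and SURF1 (0.13), named here after their values were seen, were next among the coding members. SURF1, an assembly factor of cytochrome c oxidase, had 79.4, 80.1, 71.7 and 85.3 TPM in WT and 83.9, 81.4, 85.5 and 96.9 in NOTCH1KO. Its neighbour SURF4 stood at 58.6% of WT.

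NOTCH2KO offers a comparison that did not choose the stretch, although it shares its 4 WT libraries with the comparison that did. WT values that lay high by error would lower the members in both comparisons, so the lower calls are not independent of the choice. How much this added was not tested. By limma, 69 of the 328 members (21.0%) were lower in NOTCH2KO than in WT at an adjusted p under 0.05, against 7.35% of all 17621 genes tested. In the other direction 12 members (3.66%) were higher, against 12.0% of all genes. The median member differed by -0.18, with quartiles of -0.36 and 0.01, where the median of all genes was 0.06, and 243 of 328 members were below 0. The medians in the separate cultures were -0.17, -0.22, -0.16 and -0.20. The decrease was smaller than that in NOTCH1KO: 295 members had a lower mean TPM in NOTCH1KO than in NOTCH2KO, and the median member was 0.49 higher in NOTCH2KO than in NOTCH1KO, values given without a test.

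Both counts moved when a library was left out. The 69 lower calls became 42, 43 and 43 when WT on Fc with DMSO, on Jagged1 with DMSO or on Jagged1 with DAPT was omitted, and 45, 44, 44 and 45 without each NOTCH2KO library in turn (Fc DMSO, Fc DAPT, Jagged1 DMSO, Jagged1 DAPT). The 12 higher calls became 5, 5 and 7 without those WT libraries, and 7 and 6 without NOTCH2KO on Jagged1 with DMSO or with DAPT. In the fits named for the lower calls the share of all genes called lower was 4.59% to 5.06%. In those named for the higher calls 1.52% to 2.13% of the members were higher. The share of all genes called higher was 6.90% to 8.08% there, against 12.0% with all libraries. When the libraries were centred on the genes off chromosome 9, which moved the median of all genes by -0.11, 110 members (33.5%) were lower and 10 higher, and the split over all genes turned from 1296 lower and 2109 higher to 1969 lower and 1361 higher.

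Of the members called lower in NOTCH2KO, 67 were coding (22.4% of the coding members) and 2 were pseudogenes. They lay in every window of the stretch except the last, with 0 of 16 members called from 140 Mb on and 16.7% to 27.5% called in the windows before it. The median of those last 16 members was -0.05. In NOTCH1KO the median for the same window of all member types was -0.72. The 69 members had a median of -0.50 in NOTCH2KO and of -0.85 in NOTCH1KO, and the 247 members not called in either direction had -0.12 and -0.71.

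The largest decrease in NOTCH2KO was in C9orf64, which encodes an enzyme of queuosine salvage (ENSG00000165118, chromosome 9, 86553226 to 86571901). Its TPM was 10.5, 10.7, 11.6 and 11.6 in WT, 3.93, 4.64, 3.51 and 4.67 in NOTCH1KO against 0.568, 0.688, 0.349 and 1.07 in NOTCH2KO. The genotypes were well apart, and here NOTCH2KO was the lower of the knockouts (-2.87 against WT, SE 0.12, adjusted p = 6.1e-06). ZNF883, a zinc finger gene annotated as a transcribed pseudogene, followed at -1.94 (adjusted p = 5.81e-05), from 13.9 ± 1.57 to 2.89 ± 0.382 TPM, while NOTCH1KO was at 10.6 ± 1.57.

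For the next decreases NOTCH1KO lay below WT as well, by differences of -0.66 for IPPK to -1.50 for MRPS2 on the log2(TPM + 1) scale. ASB6, a substrate adaptor of a ubiquitin ligase, had 13.8, 13.9, 14.3 and 13.2 TPM in WT, 5.68, 4.68, 6.38 and 5.23 in NOTCH1KO against 6.02, 5.86, 4.55 and 5.19 in NOTCH2KO (-1.21, SE 0.12, adjusted p = 0.000498). MRPS2, a protein of the mitochondrial ribosome, fell from 117 ± 14.3 to 53.3 ± 1.21 (-1.11), and NTMT1, which methylates protein N-termini, from 41.0 ± 8.66 to 18.9 ± 4.71 (-1.08). C9orf91 fell by 1.04 on the log2 scale. DPM2, a subunit of the enzyme that makes the mannose donor for glycans, fell by 0.88 on the log2 scale, and IPPK, the kinase that makes inositol hexakisphosphate, from 38.2 ± 4.89 to 20.6 ± 1.95 (-0.86). All 8 of these calls were kept with any library left out.

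Among the 12 members higher in NOTCH2KO, the largest rise was that of the pseudogene HSPB1P1, from 37.9 ± 9.91 to 85.6 ± 18.0 TPM (1.16, adjusted p = 0.021), whose reads may come from HSPB1. TMOD1, which caps actin filaments, had 15.5, 9.45, 12.9 and 11.9 TPM in WT, 12.7, 8.39, 10.8 and 11.5 in NOTCH1KO against 31.6, 11.4, 50.6 and 26.6 in NOTCH2KO (1.05, adjusted p = 0.0206). The NOTCH2KO culture on Fc with DAPT overlapped WT. FRMD3 (0.92), TMEM2 (0.68), TRAF1 (0.61) and CTSV (0.59) kept their calls with any library left out. HSPB1P1, TMOD1, TLE1 (0.77) and DNM1 (0.57) lost theirs in 5 to 7 of 12 such fits. Mean TPM in WT, NOTCH1KO and NOTCH2KO was 3.65, 4.85 and 7.69 for FRMD3 and 4.55, 3.28 and 7.33 for TRAF1. Both thus reached the TPM limit of the members only through NOTCH2KO, and their rises there are not independent of that limit. TLE1, a corepressor, had 9.14, 16.3, 9.95 and 15.6 TPM in WT and 17.6, 23.6, 22.5 and 24.3 in NOTCH2KO, and both genotypes were higher with DAPT than with DMSO on each plate. DNM1, the GTPase dynamin, was at 25.3 ± 1.81 TPM in WT, 14.9 ± 2.81 in NOTCH1KO and 38.2 ± 4.32 in NOTCH2KO.

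To see whether genes of one function differed from those of another, 195 of the members were placed in 10 functional lists, some in more than 1. In NOTCH1KO the list medians ran from -0.55 to -1.11, and in NOTCH2KO from -0.36 to 0.00. The counts below stand against 74.6% of the coding members and 12.5% of all genes with every NOTCH1KO library below every WT library. For NOTCH2KO they stand against 21.0% of the members lower and 3.66% higher, and 7.35% and 12.0% of all genes. The member lists are described by counts alone, and in each list the 4 members with the highest mean TPM are named.

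**Figure D5:**
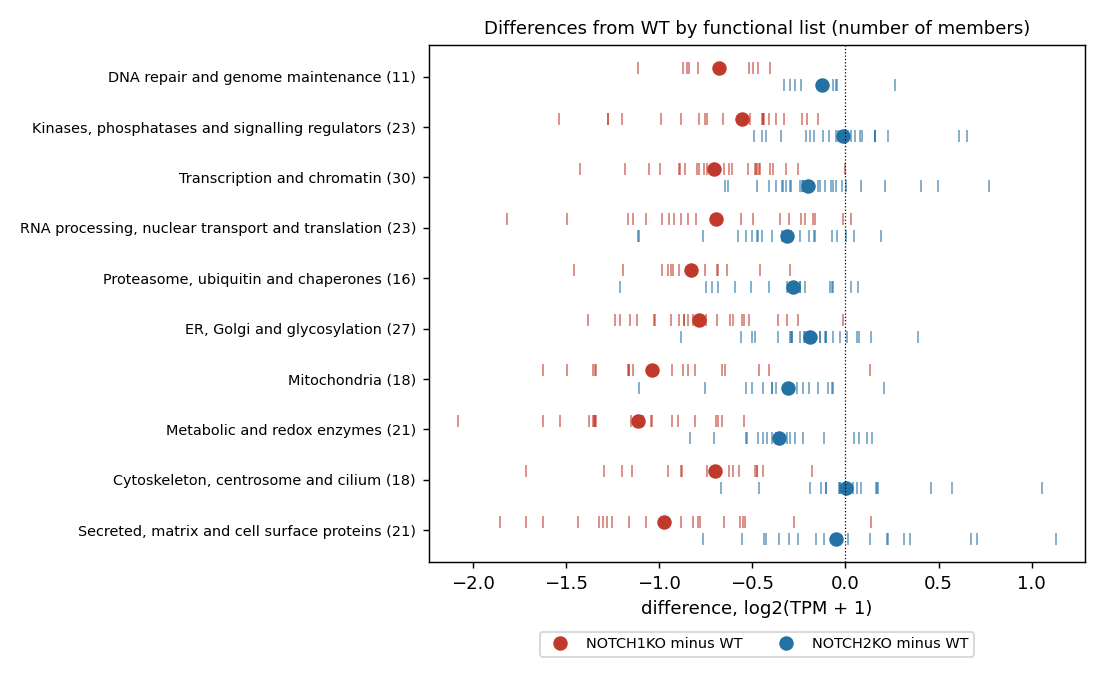
Differences from WT in log2(TPM + 1) (horizontal axis) for the members of 10 functional lists, with a tick for each member and a circle for the median, NOTCH1KO in red and NOTCH2KO in blue. The NOTCH1KO medians lie between -1.11 for metabolic and redox enzymes and -0.55 for kinases and signalling regulators.

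Metabolic and redox enzymes were the lowest in NOTCH1KO, with a median of -1.11 and 20 of 21 members below WT in all 4 libraries. ASS1, the argininosuccinate synthase of the urea cycle and of arginine supply, had 302, 223, 296 and 351 TPM in WT, 59.5, 49.4, 103 and 69.2 in NOTCH1KO against 161, 149, 177 and 159 in NOTCH2KO. The 3 genotypes did not overlap, and the fall in NOTCH2KO was 0.84 on the log2 scale (adjusted p = 0.00667). Thioredoxin (TXN), which reduces protein disulphides, had 923 ± 299 TPM in WT, 409 ± 109 in NOTCH1KO and 759 ± 217 in NOTCH2KO. PTGR1, a reductase of prostaglandins and lipid aldehydes, was at 172 ± 38.9 TPM in WT and 67.0 ± 16.1 in NOTCH1KO, and UGCG, the glucosylceramide synthase, at 203 ± 14.4 and 138 ± 7.10. In NOTCH2KO 9 of the 21 were lower and 0 higher, with a median of -0.36.

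Mitochondrial genes had a median of -1.04 in NOTCH1KO, with 15 of 18 below WT in all 4 libraries. NDUFA8, a subunit of respiratory complex I, had 201, 206, 194 and 205 TPM in WT, 87.9, 94.6, 87.1 and 87.9 in NOTCH1KO against 176, 172, 171 and 185 in NOTCH2KO. The libraries of a genotype lay close together and the genotypes were apart. FPGS, which retains folates in the cell, stood at 89.0 ± 19.8 TPM in WT and 34.4 ± 9.07 in NOTCH1KO, and SURF1 was the exception described above. In NOTCH2KO 8 of the 18 were lower, MRPS2 among them, and 0 were higher.

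Proteasome, ubiquitin and chaperone genes had a median of -0.83 in NOTCH1KO, with 15 of 16 below WT in all 4 libraries. PSMB7, a catalytic subunit of the proteasome, had 1171, 1129, 1172 and 1232 TPM in WT, 577, 621, 604 and 574 in NOTCH1KO against 960, 1020, 952 and 1034 in NOTCH2KO. NOTCH1KO was at 50.5% of WT, and the difference between NOTCH2KO and WT was -0.25 (adjusted p = 0.02). The chaperone-like ubiquitin receptor UBQLN1 was at 72.6% of WT in NOTCH1KO, RNF20, the ubiquitin ligase for histone H2B, at 55.5%, and PSMD5, an assembly chaperone of the proteasome, at 55.7%. In NOTCH2KO 10 of the 16 (62.5%) were lower and 0 higher, beside 21.0% of all members and 7.35% of all genes lower, with ASB6 the lowest.

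Genes of the secretory route had a median of -0.79 in NOTCH1KO, and 22 of 27 lay below WT in all 4 libraries. SEC61B, part of the channel into the endoplasmic reticulum, had 400 ± 41.0 TPM in WT, 170 ± 23.6 in NOTCH1KO and 392.4 ± 32.5 in NOTCH2KO. SURF4, a cargo receptor of the early secretory route, had 428 ± 21.0, 250 ± 32.1 and 396 ± 8.03. KIAA0368, which binds the proteasome, stood at 54.6% of WT and UGCG at 68.3%. In NOTCH2KO 5 of the 27 were lower and 0 higher.

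Secreted, matrix and cell surface proteins had a median of -0.98 in NOTCH1KO, with 15 of 21 below WT in all 4 libraries, but of -0.05 in NOTCH2KO, with 4 lower and 2 higher. ANXA1, the phospholipid-binding protein annexin A1, had 1152, 1304, 960 and 1222 TPM in WT, 462, 749, 520 and 651 in NOTCH1KO against 1014, 1111, 1103 and 1234 in NOTCH2KO. CTSL, the lysosomal protease cathepsin L, was at 259 ± 17.1, 124 ± 14.4 and 217 ± 10.8 TPM, and HIATL1 at 67.0% of WT in NOTCH1KO. TMEM2, a cell surface hyaluronidase, stayed near WT in NOTCH1KO at 50.1 ± 10.5 TPM against 45.2 ± 7.99, and reached 72.9 ± 12.9 in NOTCH2KO.

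The cytoskeletal list had a median of -0.70 in NOTCH1KO, with 12 of 18 below WT in all 4 libraries, and of 0.00 in NOTCH2KO, with 2 lower and 3 higher. Gelsolin (GSN), which severs actin filaments, had 92.8, 104, 76.4 and 109 TPM in WT, 32.1, 18.7, 24.5 and 42.0 in NOTCH1KO against 111, 98.8, 99.1 and 116 in NOTCH2KO. The NOTCH1KO libraries lay clear of the others, at 30.7% of WT. The β-tubulin gene TUBB4B had 679 ± 167 TPM in WT, 416 ± 91.4 in NOTCH1KO and 753 ± 128 in NOTCH2KO, so that WT and NOTCH1KO overlapped. SPTAN1, the α-spectrin of non-erythroid cells, stood at 73.3% of WT in NOTCH1KO and was higher in NOTCH2KO (0.46, adjusted p = 0.022), and SSNA1 stood at 43.3% of WT in NOTCH1KO.

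The 30 genes of transcription and chromatin had a median of -0.71 in NOTCH1KO, with 22 below WT in all 4 libraries, and 5 were lower and 2 higher in NOTCH2KO. SET, a histone chaperone, had 568 ± 77.0 TPM in WT, 452 ± 35.4 in NOTCH1KO and 359.4 ± 16.7 in NOTCH2KO, with the lower level in NOTCH2KO (-0.65, adjusted p = 0.0019). EDF1, a transcriptional coactivator, stood at 55.4% of WT in NOTCH1KO, CIZ1 at 59.2% and PHF19, a Polycomb protein, at 70.2%.

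RNA processing, nuclear transport and translation genes had a median of -0.70 in NOTCH1KO, with 14 of 23 below WT in all 4 libraries, and 8 were lower and 0 higher in NOTCH2KO. PRPF4, a protein of the spliceosome, had 159, 157, 152 and 161 TPM in WT, 85.4, 95.1, 84.9 and 93.7 in NOTCH1KO against 91.2, 90.6, 97.3 and 88.9 in NOTCH2KO. Both knockouts lay below WT and overlapped with each other (NOTCH2KO against WT -0.77, adjusted p = 0.00037). The isoleucyl-tRNA synthetase gene IARS was at 251 ± 23.3, 177 ± 13.2 and 190 ± 17.8 TPM. HNRNPK, an RNA-binding protein, was at 873 ± 169, 767 ± 6.81 and 876 ± 187 TPM, and FUBP3 at 128 ± 21.8, 126 ± 9.58 and 103 ± 16.1, without separation of NOTCH1KO from WT.

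Kinases, phosphatases and signalling regulators were the least shifted list, with a median of -0.55 in NOTCH1KO and 11 of 23 below WT in all 4 libraries. CDK9, the kinase that releases paused RNA polymerase II, had 90.0, 95.9, 76.6 and 75.1 TPM in WT, 29.5, 27.1, 31.2 and 25.6 in NOTCH1KO against 57.0, 64.7, 70.2 and 57.8 in NOTCH2KO. The 3 genotypes did not overlap, and the NOTCH2KO difference was -0.43 (adjusted p = 0.022). RGS3, which limits G protein signalling, stood at 41.8% of WT in NOTCH1KO, the catalytic subunit gene PPP6C of protein phosphatase 6 at 53.1% and MAPKAP1, a subunit of the mTOR complex that phosphorylates AKT, at 67.2%. CDK9 was the only member lower in NOTCH2KO and TRAF1, which passed the TPM limit only through its NOTCH2KO level, the only one higher.

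DNA repair genes had a median of -0.68 in NOTCH1KO, and 9 of 11 lay below WT in all 4 libraries. RAD23B, which acts in recognition of damage for nucleotide excision repair, had 251 ± 24.4 TPM in WT, 138 ± 10.1 in NOTCH1KO and 212 ± 9.01 in NOTCH2KO. POLE3, a subunit of DNA polymerase ε, was at 62.2% of WT in NOTCH1KO, SMC2, of the condensin complex, at 62.8%, and SWI5, of homologous recombination, at 43.7%. By limma 0 of the 11 were called in NOTCH2KO, with a median of -0.13.

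The culture conditions left no member past the test. Jagged1 against Fc in DMSO called 0 members by limma, against 0.0114% of all genes, and 33 members (10.1%) had an unadjusted p under 0.05, against 10.8% of all genes. DAPT against DMSO called 0 members on Jagged1 (0.0284% of all genes), with 32 (9.76%) at an unadjusted p under 0.05, where 1939 of all 17621 genes tested had one. On Fc it called 0 (0.0341% of all genes), with 21 (6.40%) against 6.14%. Median differences of the members were -0.01, 0.04 and 0.00, with a median SE of 0.15 for a single member. The Jagged1 response in NOTCH1KO against that in WT, tested as an interaction, called 0 members (0.0851% of all genes), and 12 (3.66%) had an unadjusted p under 0.05, against 5.41% of all genes. No other tool was run on these comparisons. AAED1 differed by 0.09 (SE 0.14) between Jagged1 and Fc in DMSO, by -0.02 (SE 0.14) with DAPT on Jagged1 and by 0.01 (SE 0.14) with DAPT on Fc.

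The members with the lowest adjusted p were HSDL2 for Jagged1 (0.52, adjusted p = 0.22) and LPAR1 for DAPT on Jagged1 (0.68, adjusted p = 0.082), named after their values were seen. LPAR1, a receptor for lysophosphatidic acid, had 32.2, 41.4, 32.1 and 53.9 TPM in WT, 13.3, 17.7, 12.5 and 18.3 in NOTCH1KO against 38.8, 58.9, 39.2 and 68.7 in NOTCH2KO. It was higher with DAPT than with DMSO on both plates in every genotype, at a level that was lower in NOTCH1KO throughout. S1PR3, a receptor for sphingosine 1-phosphate, had 13.6, 10.2, 36.7 and 13.5 TPM in WT, 10.2, 6.76, 21.9 and 8.91 in NOTCH1KO against 13.9, 14.3, 19.5 and 15.9 in NOTCH2KO. In each genotype the highest value was the culture on Jagged1 with DMSO. Without the NOTCH2KO library of that culture it passed the test as the only member, rising with Jagged1 (1.29, adjusted p = 0.0365) and falling with DAPT on Jagged1 (-1.29, adjusted p = 0.0204).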

How the data were processed

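Poly-A RNA of 12 DAOY cultures had been made into stranded TruSeq libraries and read as 51-base single reads, with bcl2fastq 2.17 named in the submitters' processing notes and GRCh37 as the build. Not given in the sources used here were the aligner, the quantifier, the annotation release and the handling of reads with several matches. TPM values were deposited by the authors, and sum to the same total in every library after scaling for gene length. FPKM values were deposited as a fixed multiple of TPM within a library, and coverage was deposited as mean depth per base, unscaled. Depth was read from the ratio of coverage to FPKM. The members, gene lists and tests were chosen with earlier results of these data known.

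TPM was summed per gene identifier and put on the log2(TPM + 1) scale, on which changes of low genes come out too small. The 17621 genes whose mean TPM reached 1 were fitted with limma 3.58.1 in R 4.3.3, with a mean-variance trend, additive terms for genotype and culture and 6 residual degrees of freedom (4 for the interaction). Calls used adjusted p-values (Benjamini and Hochberg over all tested genes) under 0.05. With 1 library per combination, p-values rest on departures from the additive model in these libraries, not on repeated cultures. NOTCH1KO against WT, which picked the stretch, was not tested. The fits were also run on simulated data with independent noise and planted changes, which cannot show the error of a single culture. GENCODE v29 gave the gene types of 327 members. Named were GDA and AAED1, the 8 lowest and 8 highest members in NOTCH1KO, the 8 largest calls each way in NOTCH2KO, up to 5 called members of each culture comparison, the 4 most abundant members of each list, and the neighbours of both limits. Other settings were a pseudocount of 0.1, no filter, a mean TPM of at least 5, FPKM, coverage scaled per library, libraries centred on genes off chromosome 9, the compared term alone, each library left out, and members from 80 Mb or with a mean TPM of at least 20. Some single genes are not reported here.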

Additional observations from a re-analysis of the deposited data

Results flagged for a closer look

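In 10 of 108 groups of 4 libraries, a library stood far from the other 3 relative to the range of the group. The groups were those of the members named in the report and of the members' share of TPM. The cut-off passes about 1 in 20 groups of repeated normal draws. That rate does not apply here, because the 4 libraries are different cultures and the named members were picked for their values. The outlying libraries in NOTCH1KO were those of C9orf16 on Jagged1 with DAPT, at 12.2 TPM with the next at 4.38, and SNHG7 on Fc with DAPT, at 27.2 with the next at 8.65. In NOTCH2KO they were SEPT7P7 (27.6 TPM, next 20.9), HMGB1P37 (44.1, next 41.6) and CTSV (24.4, next 21.4) on Jagged1 with DMSO, FRMD3 on Fc with DMSO (7.09, next 7.84), and YBX1P6 on Jagged1 with DAPT (32.8, all others at 0). In WT they were RPSAP9 on Jagged1 with DMSO (50.4, next 59.7), HMGB1P37 on Jagged1 with DAPT (36.9, next 34.2) and YBX1P6 on Fc with DAPT (42.1, all others at 0). SEPT7P7, HMGB1P37, YBX1P6 and RPSAP9 are pseudogenes that can share reads with their parent genes.

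For 7 of the 34 members examined, every NOTCH1KO culture lay on one side of its matched WT culture and every NOTCH2KO culture on the other. Apart from AAED1, these members had been picked for extreme values in the same comparisons. The share over all genes was not computed, so the count does not say how common the pattern is. Lower in NOTCH1KO and higher in NOTCH2KO were TMOD1 (-0.18 and 1.05), TLE1 (-0.52 and 0.77), TRAF1 (-0.37 and 0.61), CTSV (-0.23 and 0.59) and DNM1 (-0.74 and 0.57). Higher in NOTCH1KO and lower in NOTCH2KO were EEF1A1P5 (0.33 and -0.12) and SURF1 (0.13 and -0.07). The difference between the knockouts was not tested, and both share the WT libraries.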

How the results depend on the processing

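The median difference of the members between NOTCH1KO and WT (-0.74) moved by less than the spread over cultures under the 8 other settings. Among these, no filter and a mean TPM of at least 5 used the same members and values, so they could not move it. The median lay between -0.76 and -0.71 with a WT or NOTCH1KO library and its pair left out. The 227 members with all NOTCH1KO libraries below WT stayed within 1.5 times of that number under the same settings, with the same limit. With a library left out they were 228 to 245. Leaving a library out can only keep or raise this count, so that range is no check of it. In NOTCH2KO the members called lower were 110 with libraries centred on genes off chromosome 9, where 11.2% of all genes were lower. Under the other settings they ranged from 59 without a filter (3.93% of the 32399 genes tested there) to 94 with FPKM (9.14% of all genes). With a library left out they ranged from 42 without WT on Fc with DMSO (4.59% of all genes lower) to 81 without NOTCH1KO on Fc with DAPT (8.84%). The members called higher ranged from 5 to 17, with 6.90% and 14.1% of all genes higher in the same fits. Fewer libraries leave fewer residual degrees of freedom in these fits. Jagged1 against Fc in DMSO called 0 to 1 members higher and DAPT on Jagged1 0 to 1 lower with a library left out, and in all other settings the culture comparisons called 0. For the members named from NOTCH2KO together with AAED1, 17 in all, 26 of 323 refits lost the call, in HSPB1P1, TMOD1, TLE1 and DNM1, and 0 changed sign. The refits of AAED1 are among the 323, although it was not called and had no call to lose. Cultures are matched across genotypes and culture is a term of the fit. Without that term 75 members (22.9%) were lower and 13 (3.96%) higher, against 6.76% and 11.2% of all genes. Each value rests on 1 library per culture, and the error of a single culture is unknown.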

Other observations

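Below the limit of the members, 107 genes of the stretch had a mean TPM of 1 to 5. Their median difference between NOTCH1KO and WT was -0.50, and all 4 NOTCH1KO libraries lay below all 4 WT libraries for 42 of them (39.3%, against 12.5% of all genes) and above for 5 (4.67%, against 11.9%). In NOTCH2KO their median was -0.04. These values come from the comparison that picked the stretch and are given without a test.

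The members that are neither coding genes nor pseudogenes numbered 5. LINC00476, a long intergenic RNA, differed by -0.78 between NOTCH1KO and WT, the antisense gene C9orf37 by -0.75, SNORD36A, a small nucleolar RNA within a host gene, by -0.33 and RNA5-8SP3, which matched no entry of the annotation, by -0.21, while SNHG7 at -1.82 is described in the report. Poly-A libraries hold small RNAs poorly, and the levels of SNORD36A and RNA5-8SP3 are uncertain for that reason.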
